A study of Homo sapiens with 15 samples.

Results

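Expression of *GPR3*, *PDE4A*, *PDE4B*, *PDE4D*, *CREM*, *SIK1*, *NR4A1*, *NR4A2* and *NR4A3* was taken from RNA sequencing of BEAS-2B cells, an immortalized line of human bronchial epithelial cells. The rows of the deposited table were selected by gene symbol, and the 9 genes are 9 of its 58219. Each encodes a part of the cyclic AMP (cAMP) pathway, or is a known target of it. Cells were grown on collagen in serum-free medium and received medium alone (vehicle control), 1 µg/cm2 or 30 µg/cm2 of fine particulate matter (PM2.5) for 24 h. In a separate protocol, vehicle or 1 µg/cm2 was given daily, with washing between treatments. The labels give 7 days of treatment, whereas the methods describe 6 daily treatments and harvest on day 7. The particles were from Beijing winter air and had been extracted from filters into water. Each of the 5 conditions was sequenced in 3 independent experiments, which gave 15 libraries. All of them come from 1 cell line in culture, with no primary cells. The sample titles do not say whether an experiment number means the same in the 24-h and the 7-day protocols. Here the numbers were treated as separate.

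cAMP is made by adenylyl cyclases, which receptors coupled to the G protein Gs switch on. It activates protein kinase A, which phosphorylates the transcription factor CREB, and CREB binds the cAMP response element (CRE) of its target genes. Phosphodiesterases of the PDE4 family break cAMP down again, and their inhibitors are used in the treatment of airway disease. Several CREB targets restrain the pathway in turn. These include *CREM*, which can produce a short repressor from an internal promoter, and *SIK1*, whose kinase inactivates coactivators of CREB. The NR4A genes encode orphan nuclear receptors and are known as early response genes to cAMP and to growth factors.

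Each library held 21460981 to 34724765 reads assigned to genes. Values are CPM, counts per 1e6 assigned reads after trimmed mean (TMM) scaling, and 3 counts in a library equal 0.0864 to 0.140 CPM. These floors cover counting error only. Libraries of experiment 2 in the 24-h protocol stood apart. The chi-square per degree of freedom against experiments 1 and 3 of the same condition was 68.6 to 161, compared with 4.11 to 16.4 between experiments 1 and 3. For the 9 genes, calls at 24 h are therefore also given without experiment 2, as are the counts over the rest of the pathway. In the 7-day protocol, the PM2.5 library of experiment 3 differed from experiments 1 and 2 by 17.9 and 23.1, compared with 4.04 to 4.74 between the other pairs of 1 condition. As to the cell type, the 9 markers of bronchial epithelium were all detected, and the club cell gene *SCGB1A1* had no count in any library. The summed CPM of the 9 epithelial markers was 2203 to 2940 in 24-h controls, 1909 to 3372 at 1 µg/cm2 and 1039 to 1564 at 30 µg/cm2. It was 2811 to 3503 in 7-day controls and 1919 to 2089 after daily PM2.5. The 4 fibroblast markers were also detected in every library, led by *COL1A1* at 22.3 to 52.0 CPM, and their summed CPM was 60.1 to 71.0 in 24-h controls, 60.1 to 64.2 at 1 µg/cm2 and 43.8 to 84.7 at 30 µg/cm2. It was 53.8 to 90.2 in 7-day controls and 52.2 to 62.6 after daily PM2.5. The part of these markers in the results was not tested.

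The edgeR quasi-likelihood model was fitted to 17599 genes in all 15 libraries. A call required a Benjamini-Hochberg adjusted p under 0.05 together with a log2 fold change of 0.6 or more in either direction, and all 9 genes could be tested. After 30 µg/cm2 of PM2.5, 5 of the 9 genes were called, compared with 8.07% of all tested genes. *NR4A1*, *CREM* and *GPR3* rose, and *PDE4B* and *PDE4D* fell. With any 1 of the 6 libraries left out, 3 or 4 of the 9 were called, and *CREM* and *PDE4B* were among them each time. These fits called from 794 of 17978 to 2706 of 18083 tested genes in all. After 1 µg/cm2 for 24 h, edgeR called 0 of the 9, against 0.0625% of all genes. Of the 9, 3 had an unadjusted edgeR p under 0.05, as had 534 of all 17599 tested genes. DESeq2 called 1 of the 9 (of 39 genes called in all). The edgeR fit with experiment as a replicate block called 2 (of 74 in all). After daily exposure for 7 days, edgeR called 0 of the 9, against 0.227% of all genes. The unadjusted edgeR p was under 0.05 for 3 of the 9 and for 2102 of all 17599 tested genes. DESeq2 and the replicate block each called 1, of 251 and 773 genes called in all.

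Treated and control libraries did not overlap for 4 of the 9 genes at 30 µg/cm2, as for 22.8% of all tested genes. At 1 µg/cm2 for 24 h this held for 3 of the 9 genes and 4.44% of all genes. After 7 days it held for 4 of the 9 genes and 42.9% of all genes, so that the 7-day count is close to the background.

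**Figure D1:**
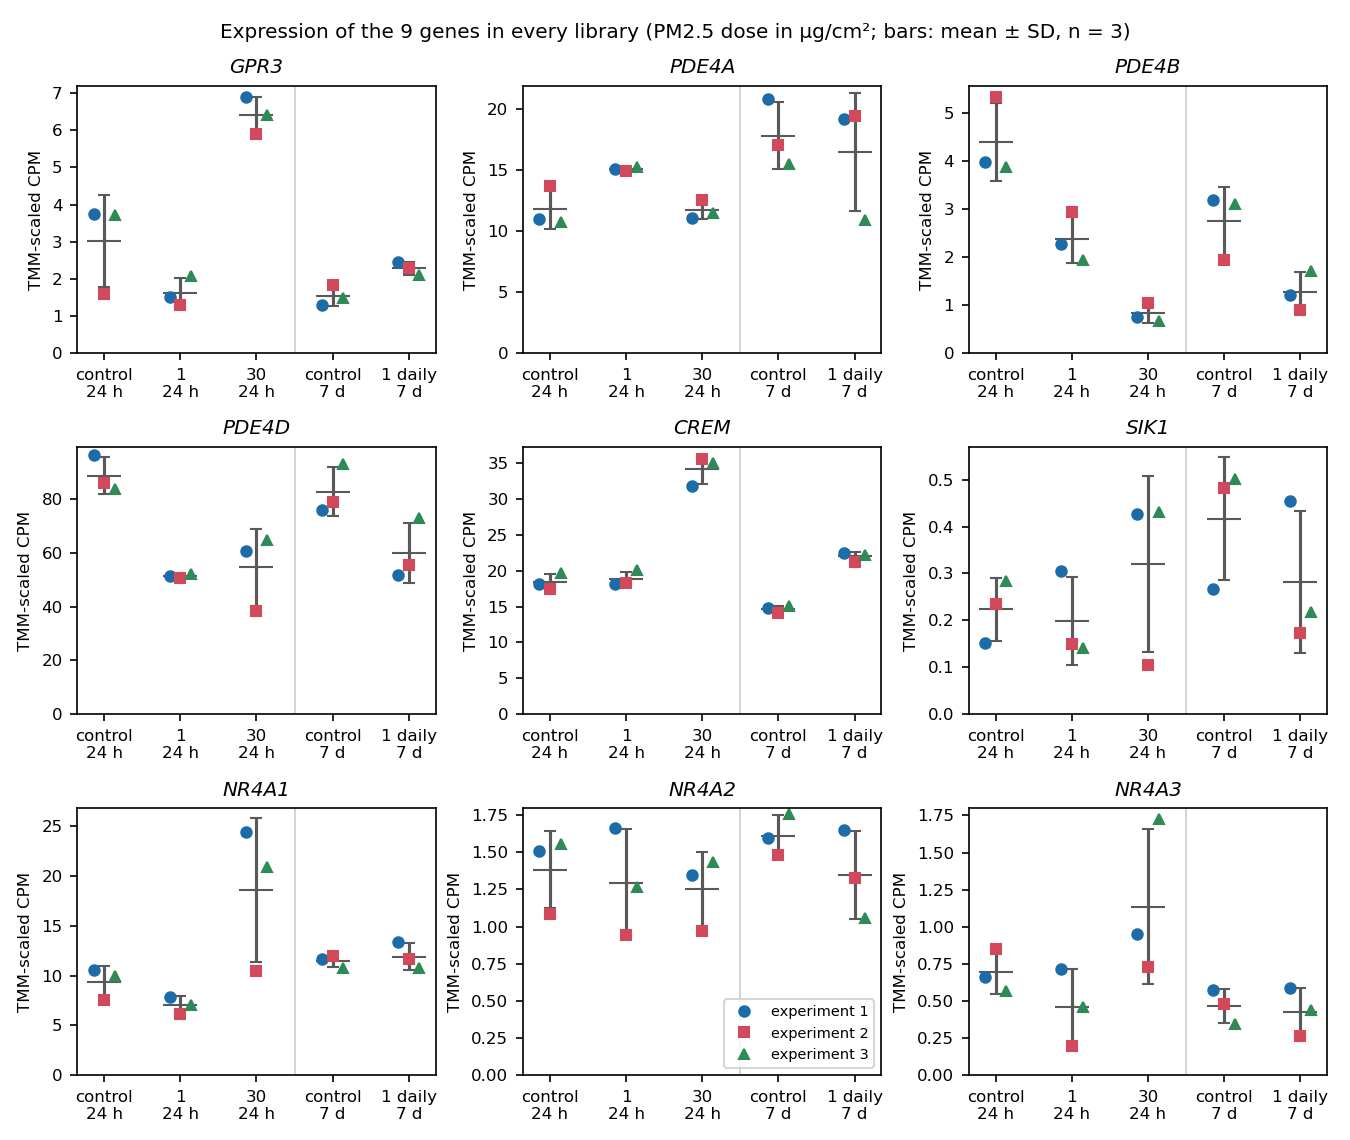
Expression of the 9 genes in every library, as TMM-scaled CPM on a linear axis from 0, by condition (PM2.5 dose in µg/cm2), with 1 symbol for each experiment and bars for the mean ± SD (n = 3). *PDE4B* is lowest at 30 µg/cm2, from 0.670 to 1.04 CPM, where *CREM* is highest, from 31.9 to 35.6 CPM.

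*GPR3* (ENSG00000181773.6, chromosome 1 from 27392644 to 27395814, plus strand) encodes a receptor that activates Gs without needing a bound ligand, and its log2 fold changes had opposite signs at the low and the high concentration. Controls at 24 h had 3.73, 1.60 and 3.72 CPM in experiments 1 to 3. Cells with 1 µg/cm2 had 1.496, 1.29 and 2.07 CPM, and cells with 30 µg/cm2 had 6.90, 5.90 and 6.42 CPM. The high concentration lay above all other libraries, while the control of experiment 2 lay among those with 1 µg/cm2. At 30 µg/cm2 the log2 fold change was 1.07 (SE 0.282, edgeR adjusted p = 0.0264), a 2.11-fold rise. In RNA of whole cultures, more expressing cells and more RNA per cell cannot be told apart, here and for the other genes. Without experiment 2 the log2 fold change was 0.83 (edgeR adjusted p = 0.0039). At 1 µg/cm2, it was -0.90 (SE 0.293, unadjusted p = 0.0085 and adjusted p = 1 from edgeR), and all 3 experiments were lower than their own control. This reached an edgeR adjusted p of 0.214 with the replicate block and of 0.00952 without experiment 2, where the log2 fold change was -1.05. The call at 30 µg/cm2 was lost without the treated library of experiment 1 (log2 1.00, edgeR adjusted p = 0.101) or 3 (log2 1.07, edgeR adjusted p = 0.0816).

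In the 7-day protocol, *GPR3* stood at 1.29, 1.83 and 1.47 CPM in the controls and at 2.46, 2.28 and 2.09 CPM after daily PM2.5. All treated libraries were above all controls. A log2 fold change of 0.57 (SE 0.293, edgeR adjusted p = 0.476) did not pass. Its paralogs *GPR6* and *GPR12* had no count in any library.

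**Figure D2:**
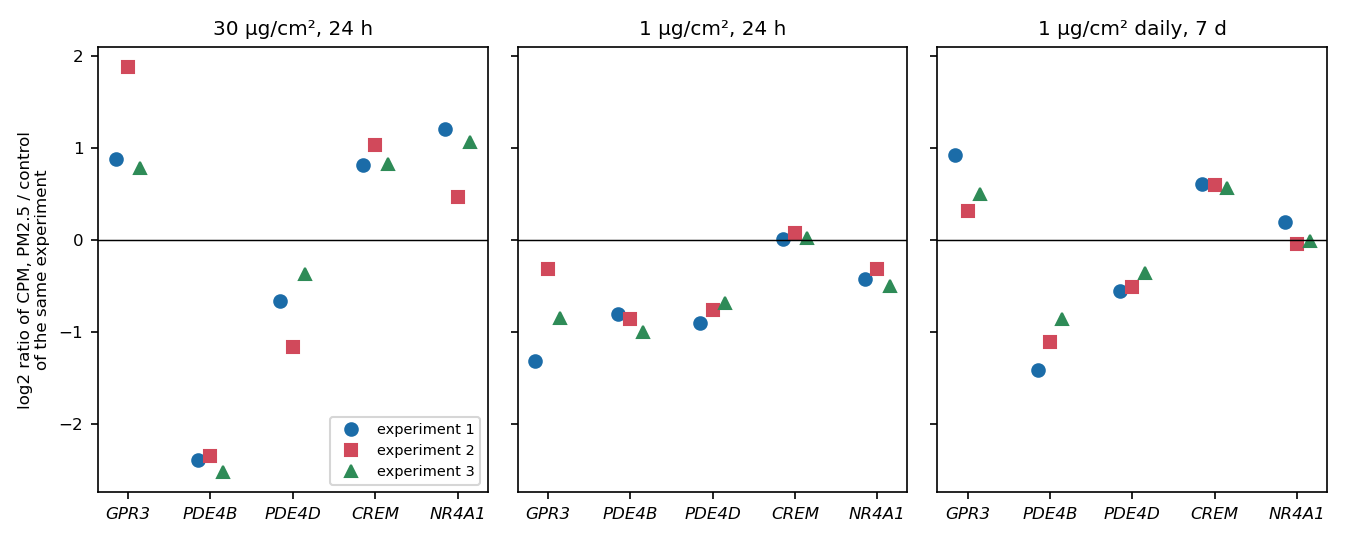
The log2 ratio of CPM between PM2.5 and the control of the same experiment, for *GPR3*, *PDE4B*, *PDE4D*, *CREM* and *NR4A1* in the 3 exposures, with 1 symbol for each experiment. *GPR3* is below 0 in all experiments with 1 µg/cm2 for 24 h (-1.32, -0.31 and -0.84) and above 0 in all others, while *PDE4B* and *PDE4D* are below 0 throughout.

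*PDE4B* (ENSG00000184588.17, chromosome 1 from 65792514 to 66374579, plus strand) encodes a cAMP phosphodiesterase that is prominent in inflammatory cells. Its fall at 30 µg/cm2 was the largest change among the 9 genes in this comparison. The 24-h controls had 3.97, 5.32 and 3.86 CPM. Expression was 2.28, 2.92 and 1.93 CPM with 1 µg/cm2 and 0.756, 1.04 and 0.670 CPM with 30 µg/cm2. The 3 conditions did not overlap, and expression was lower at each step of concentration in every experiment. At 30 µg/cm2 the log2 fold change was -2.40 (SE 0.310, edgeR adjusted p = 0.000291), which is 5.27-fold lower. The experiments differed little, with log2 ratios of -2.39, -2.35 and -2.53, and without experiment 2 the log2 fold change was -2.45.

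With 1 µg/cm2 for 24 h, *PDE4B* had a log2 fold change of -0.88 (SE 0.287, unadjusted p = 0.00823 and adjusted p = 1 from edgeR). The replicate block gave -0.89 (SE 0.169, edgeR adjusted p = 0.0408), which was called. It was not called without experiment 2 (log2 -0.89, edgeR adjusted p = 0.0822) or with DESeq2 (log2 -0.89, adjusted p = 0.444). The log2 ratios to the control of the same experiment were -0.80, -0.86 and -0.9995. After 7 days, controls had 3.19, 1.93 and 3.11 CPM and cells with daily PM2.5 had 1.20, 0.895 and 1.72 CPM. The groups did not overlap, although the control of experiment 2 was near the highest treated library. The log2 fold change was -1.11 (SE 0.295, edgeR adjusted p = 0.142), and with the replicate block -1.11 (SE 0.181, edgeR adjusted p = 0.0048), which was called. Without the treated library of experiment 3 it was -1.39 (edgeR adjusted p = 0.227). The 14 to 30 counts per library at 30 µg/cm2 limit the precision of this gene.

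*PDE4D* (ENSG00000113448.18, chromosome 5 from 58969038 to 60522120, minus strand) encodes the family member with the highest level here. Controls at 24 h had 96.5, 85.9 and 83.6 CPM, cells with 1 µg/cm2 had 51.5, 50.7 and 52.0 CPM, and cells with 30 µg/cm2 had 60.7, 38.3 and 64.9 CPM. Both concentrations lay wholly below the controls and overlapped each other. For 30 µg/cm2 against control, the log2 fold change was -0.70 (SE 0.181, edgeR adjusted p = 0.0248). It was -0.54 without experiment 2 (edgeR adjusted p = 0.00468) and -0.50 without the treated library of experiment 2 alone (edgeR adjusted p = 0.0288), both short of the threshold on size. Without the control of experiment 1 it was -0.65 (edgeR adjusted p = 0.0783).

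At the low concentration, all 3 *PDE4D* libraries differed from each other by little. The log2 fold change at 1 µg/cm2 was -0.79 (SE 0.182, edgeR adjusted p = 0.395), and -0.79 with the replicate block (SE 0.131, edgeR adjusted p = 0.0184), which was called. DESeq2 called it as well, at an adjusted p of 0.0309, and so did the fit without experiment 2 (log2 -0.79, edgeR adjusted p = 0.00211). Between 30 and 1 µg/cm2 the log2 difference was 0.09 (SE 0.181, edgeR adjusted p = 0.824). After 7 days, *PDE4D* was at 76.0, 79.0 and 93.0 CPM in controls and at 51.8, 55.3 and 72.8 CPM with PM2.5. The groups came close without overlapping, and the log2 fold change of -0.46 (SE 0.181, edgeR adjusted p = 0.321) was not called. It was -0.63 (edgeR adjusted p = 0.38) without the treated library of experiment 3, which held the highest of the treated values. Exons of *PDE4D* overlap *PART1* and ENSG00000275634 on the other strand. The larger of these held 105 counts over the 15 libraries, against 28983 counts of *PDE4D*.

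*PDE4A* (ENSG00000065989.15, chromosome 19 from 10416773 to 10469631, plus strand) encodes a further enzyme of the same family, and it did not follow *PDE4B* and *PDE4D*. It had 10.96, 13.7 and 10.8 CPM in 24-h controls, 15.1, 14.9 and 15.3 CPM at 1 µg/cm2 and 11.1, 12.6 and 11.5 CPM at 30 µg/cm2. The libraries with 1 µg/cm2 lay above the other 24-h libraries, and the high concentration overlapped the controls. Its log2 fold changes were 0.36 at 1 µg/cm2 (SE 0.199, edgeR adjusted p = 1) and -0.01 at 30 µg/cm2 (SE 0.199, edgeR adjusted p = 0.989). After 7 days, controls had 20.9, 17.1 and 15.5 CPM and treated cells 19.2, 19.4 and 10.9 CPM, which overlapped (log2 -0.11, SE 0.197, edgeR adjusted p = 0.872). Without the treated library of experiment 3, which stood apart, the log2 fold change was 0.11 (edgeR adjusted p = 0.88).

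Levels of different genes can be compared only per length, as CPM per kb of the exon length in the deposited table. This length covers all annotated exons of a gene. The transcripts made in these cells can be shorter and were not measured, which limits such comparisons. On this scale *PDE4D* made up 65.7% ± 2.95 of the summed PDE4 level in 24-h controls, *PDE4A* 21.5% ± 2.74, *PDE4C* 6.76% ± 0.827 and *PDE4B* 6.12% ± 1.04 (SD, n = 3). At 30 µg/cm2 the share of *PDE4D* was 52.5% ± 3.26, that of *PDE4A* 29.1% ± 9.07, that of *PDE4C* 16.8% ± 7.13 and that of *PDE4B* 1.61% ± 0.787 (SD, n = 3). The summed level was 8.28 ± 0.494 CPM per kb in 24-h controls, 6.60 ± 0.379 at 1 µg/cm2 and 6.33 ± 1.35 at 30 µg/cm2 (SD, n = 3). In the 7-day protocol it was 8.20 ± 0.386 CPM per kb in controls and 6.45 ± 0.133 with PM2.5 (SD, n = 3). These shares and sums were not tested. *PDE4C* had log2 fold changes of 1.00 at 30 µg/cm2 (SE 0.425, edgeR adjusted p = 0.168) and 0.69 at 1 µg/cm2 (SE 0.425, edgeR adjusted p = 1). Without experiment 2 both were called, at 1.30 (edgeR adjusted p = 0.000241) and 0.896 (edgeR adjusted p = 0.0277).

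**Figure D3:**
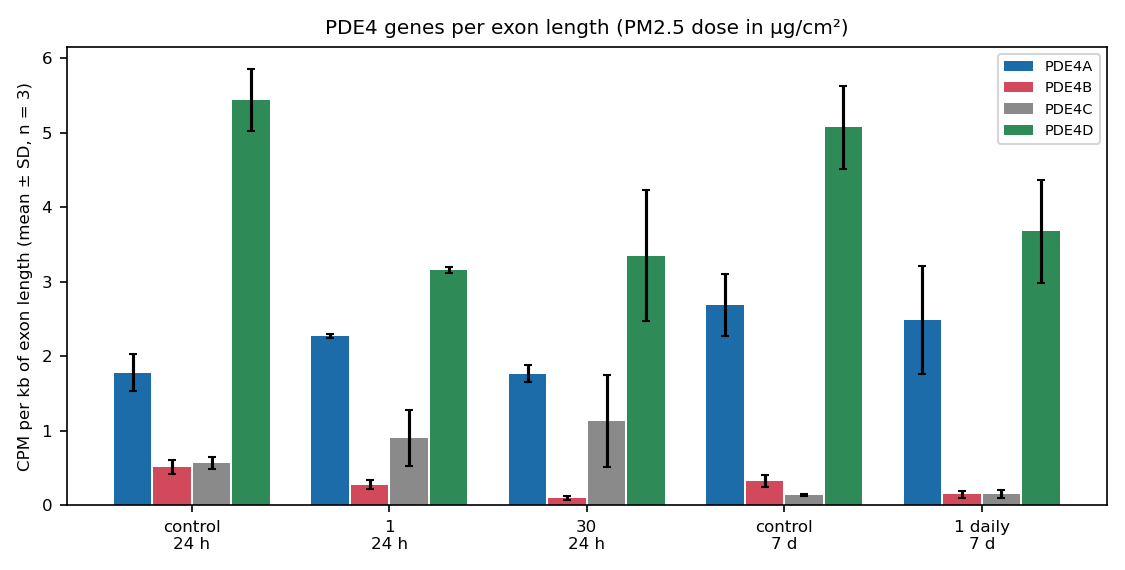
Levels of the 4 PDE4 genes as CPM per kb of exon length (bars, mean ± SD, n = 3) in the 5 conditions (PM2.5 dose in µg/cm2). *PDE4D* is the highest bar everywhere, at 5.44 in 24-h controls and 3.15 at 1 µg/cm2, and *PDE4B* falls from 0.507 in 24-h controls to 0.0951 at 30 µg/cm2.

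*CREM* (ENSG00000095794.19, chromosome 10 from 35126791 to 35212958, plus strand) encodes activators and repressors that bind the CRE. Its log2 fold changes had the smallest SE of the 9 genes. Controls at 24 h had 18.1, 17.4 and 19.7 CPM and cells with 1 µg/cm2 had 18.2, 18.3 and 20.1 CPM, so these groups overlapped. Cells with 30 µg/cm2 had 31.9, 35.6 and 35.0 CPM, above every other library. This gave a log2 fold change of 0.89 at 30 µg/cm2 (SE 0.104, edgeR adjusted p = 0.000144), a 1.86-fold rise, and 0.81 without experiment 2. At 1 µg/cm2 it was 0.04 (SE 0.104, edgeR adjusted p = 1).

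After daily PM2.5, *CREM* had 22.5, 21.3 and 22.3 CPM, compared with 14.7, 14.04 and 15.1 CPM in its controls. The groups were well apart, and the log2 ratios within experiments were 0.61, 0.60 and 0.56. The log2 fold change of 0.59 (SE 0.104, edgeR adjusted p = 0.0384) passed on the adjusted p and was just short of the 0.6 required for a call. With the replicate block it was 0.59 as well (edgeR adjusted p = 0.00339). The edgeR adjusted p was 0.162 to 0.252 with any 1 of the 6 libraries left out, and 0.245 without a filter on low counts. The difference between the responses to daily and to single low exposure was 0.55 (SE 0.146, unadjusted p = 0.00208), and its edgeR adjusted p was 0.409. Counts are per gene, so transcripts from its internal promoter and from the upstream promoters are summed.

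The CRE was searched in RefSeq promoter windows (GRCh38.p14, 300 bases around a transcript start, most of them upstream of it) on both strands. Windows were found for 8 of the 9 genes. TGACGTCA, the full element, occurred in 649 of 35116 windows (1.85%) and in 2.25% of genes. Among the 9 genes the full element was in 4 of 31 windows, which belong to *CREM*, *GPR3* and *PDE4A*. The short site TGACG, the core of the element, which is part of the full element on each strand, occurred in 24.55% of windows and 28.42% of genes. Among the 9 genes it was in 8 of 31 windows, and in at least 1 window of *CREM*, *GPR3*, *PDE4A*, *PDE4D*, *SIK1* and *NR4A3*. The element AAAGGTCA, to which NR4A receptors bind, was in 1.22% of windows and in none of these genes. The windows of *CREM* that hold the full element TGACGTCA overlap and share the same site. *CREM* has 7 windows and *PDE4A* 5, and their use in these cells was not measured. The windows below include one with the full element for each of *GPR3*, *CREM* and *PDE4A*. *GPR3* and *CREM* were called as rises at 30 µg/cm2, and *PDE4A* was not called. *NR4A1* also rose, and its 2 windows hold neither the full element nor the short site. The use of these 2 windows was not measured either, and the rest of the gene was not searched. Whether any of these sites has a part in the changes was not tested. *NR4A3* is shown for its 4 short sites. Capitals mark TGACGTCA and TGACG, or CGTCA where the short site is on the other strand.
GPR3, chr1:27392372-27392671, plus strand: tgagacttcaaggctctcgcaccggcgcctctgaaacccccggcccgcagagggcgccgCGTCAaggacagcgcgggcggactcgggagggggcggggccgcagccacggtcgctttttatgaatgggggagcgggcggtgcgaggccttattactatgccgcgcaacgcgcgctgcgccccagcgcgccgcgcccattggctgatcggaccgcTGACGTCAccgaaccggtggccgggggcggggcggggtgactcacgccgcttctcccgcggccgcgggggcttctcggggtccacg
CREM, internal promoter, chr10:35195652-35195951, plus strand: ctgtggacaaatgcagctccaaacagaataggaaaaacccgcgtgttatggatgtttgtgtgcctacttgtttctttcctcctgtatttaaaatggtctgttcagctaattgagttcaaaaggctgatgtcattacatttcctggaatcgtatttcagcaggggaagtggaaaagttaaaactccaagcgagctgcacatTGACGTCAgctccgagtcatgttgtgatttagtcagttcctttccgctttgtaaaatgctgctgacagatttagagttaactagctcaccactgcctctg
PDE4A, chr19:10416523-10416822, plus strand: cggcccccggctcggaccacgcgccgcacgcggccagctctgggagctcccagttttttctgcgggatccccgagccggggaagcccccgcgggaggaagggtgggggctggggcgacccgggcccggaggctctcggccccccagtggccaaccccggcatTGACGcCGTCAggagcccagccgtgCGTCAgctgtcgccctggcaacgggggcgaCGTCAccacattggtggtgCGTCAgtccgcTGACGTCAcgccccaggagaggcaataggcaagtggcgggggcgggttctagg
NR4A3, chr9:99821635-99821934, plus strand: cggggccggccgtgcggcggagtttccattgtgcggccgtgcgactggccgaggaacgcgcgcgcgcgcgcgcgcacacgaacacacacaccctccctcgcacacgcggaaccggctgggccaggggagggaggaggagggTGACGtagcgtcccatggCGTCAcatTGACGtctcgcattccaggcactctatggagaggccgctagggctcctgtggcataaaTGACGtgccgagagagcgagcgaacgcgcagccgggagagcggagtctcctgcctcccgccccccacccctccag
The full element begins 36 bases before the start in *GPR3*, 50 before it in this *CREM* window and 3 before it in *PDE4A*. A match is a description of the letters and not a measurement of binding.

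*SIK1* (ENSG00000142178.7, chromosome 21 from 43414515 to 43427128, minus strand) could hardly be measured. It had 3 to 16 counts per library, or 0.104 to 0.502 CPM, and its groups overlapped at each exposure. The genome build holds a second copy, ENSG00000275993.2 (chromosome 21 from 6111134 to 6123739, plus strand), with 98.29% identity over 4804 aligned exon bases. Of the windows of 50 bases in the exons of *SIK1*, 93.4% occurred in the copy, so most reads of this length could not be assigned to one of them. The copy had 3.83 to 8.72 CPM. *SIK1* alone took between 3.22% and 5.18% of the counts of both in the 5 conditions.

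When the counts of *SIK1* and its copy were summed, an alternative chosen after the data were seen, 24-h controls had 6.50, 7.06 and 6.84 CPM. Cells with 1 µg/cm2 had 4.49, 4.66 and 3.97 CPM and those with 30 µg/cm2 had 8.38, 5.06 and 8.62 CPM. The low concentration lay below all other 24-h libraries, and the high one spread across the controls. The sum differed between 30 and 1 µg/cm2 by a log2 of 0.75 (SE 0.201, edgeR adjusted p = 0.0304), which was called. Against the controls, the summed log2 fold change was -0.64 at 1 µg/cm2 (SE 0.201, edgeR adjusted p = 1) and 0.11 at 30 µg/cm2 (SE 0.198, edgeR adjusted p = 0.793). *SIK1* alone had 0.51 at 30 µg/cm2 (SE 0.581, edgeR adjusted p = 0.661), and 0.98 without experiment 2 (edgeR adjusted p = 0.228). After 7 days the summed log2 fold change was -0.49 (SE 0.197, edgeR adjusted p = 0.336). That of *SIK1* alone was -0.58 (SE 0.531, edgeR adjusted p = 0.72).

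*NR4A1* (ENSG00000123358.19, chromosome 12 from 52022832 to 52059507, plus strand), also known as NUR77, encodes the NR4A receptor with the highest level here. Controls at 24 h had 10.6, 7.58 and 9.96 CPM. Cells with 1 µg/cm2 had 7.89, 6.10 and 7.02 CPM, and those with 30 µg/cm2 had 24.5, 10.5 and 20.9 CPM. Each experiment was lower than its control at 1 µg/cm2 and higher at 30 µg/cm2. The treated library of experiment 2 nevertheless lay within the range of the controls. *NR4A1* thus had a log2 fold change at 30 µg/cm2 of 0.99 (SE 0.248, edgeR adjusted p = 0.0214), a 1.98-fold rise, and 1.13 without experiment 2 (edgeR adjusted p = 3.7e-06). With single libraries left out, the call was lost 4 times. The edgeR adjusted p was 0.0803 without the control of experiment 2, 0.057 without that of experiment 3, 0.131 without the treated library of experiment 1 and 0.0919 without that of experiment 3. At 1 µg/cm2 its log2 fold change was -0.42 (SE 0.25, edgeR adjusted p = 1). After 7 days, controls had 11.7, 12.0 and 10.8 CPM and treated cells 13.4, 11.6 and 10.7 CPM, which overlapped (log2 0.05, SE 0.246, edgeR adjusted p = 0.96).

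*NR4A2* (ENSG00000153234.13, chromosome 2 from 156324432 to 156342348, minus strand), which encodes NURR1, ranged from 0.942 to 1.76 CPM, and treated libraries overlapped their controls in each exposure. Its log2 fold changes were -0.16 at 30 µg/cm2, -0.10 at 1 µg/cm2 and -0.26 after 7 days, with SEs of 0.276, 0.275 and 0.269. *NR4A3* (ENSG00000119508.17, chromosome 9 from 99821855 to 99866891, plus strand), which encodes NOR1, was lower still, with 4 to 36 counts per library. It had 0.662, 0.848 and 0.567 CPM in 24-h controls, 0.714, 0.198 and 0.457 CPM at 1 µg/cm2 and 0.953, 0.728 and 1.72 CPM at 30 µg/cm2. The high concentration was above the low one in every library and overlapped the controls. The log2 fold change was 0.70 at 30 µg/cm2 (SE 0.439, edgeR adjusted p = 0.373), -0.55 at 1 µg/cm2 (SE 0.464, edgeR adjusted p = 1) and -0.13 after 7 days (SE 0.47, edgeR adjusted p = 0.946). At 30 µg/cm2 it was 1.07 without experiment 2 (edgeR adjusted p = 0.058), and 0.29 to 0.93 with any 1 library left out.

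**Figure D4:**
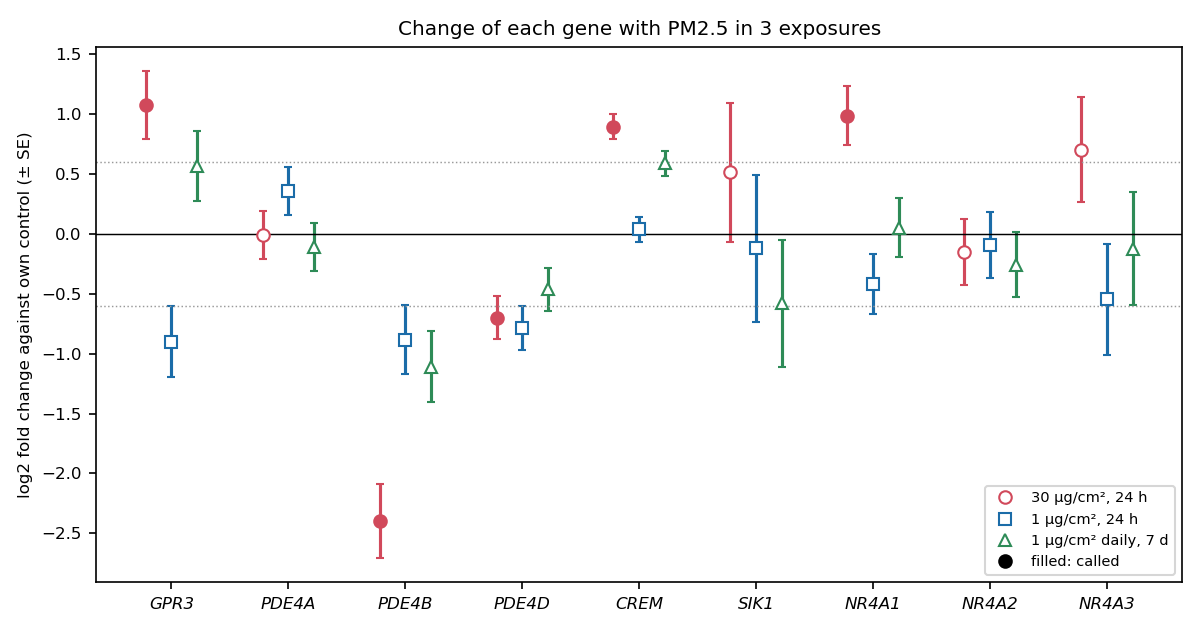
The log2 fold change of each of the 9 genes against its own control (± SE) in the 3 exposures, from the edgeR model over 15 libraries. Filled symbols mark the 5 calls, which all belong to 30 µg/cm2, and dotted lines mark a log2 fold change of 0.6 in either direction.

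The concentrations were also compared directly at 24 h. Between 30 and 1 µg/cm2, edgeR called 4 of the 9 genes, against 7.84% of all genes. *GPR3* was 3.93-fold higher at 30 µg/cm2 (log2 1.97, SE 0.295, edgeR adjusted p = 0.00103), *NR4A1* 2.65-fold higher (log2 1.41, SE 0.252, edgeR adjusted p = 0.00336) and *CREM* 1.81-fold higher (log2 0.86, SE 0.104, edgeR adjusted p = 0.000299). *PDE4B* was 2.85-fold lower (log2 -1.51, SE 0.311, edgeR adjusted p = 0.0076). *NR4A3* had a log2 difference of 1.25 (SE 0.454, edgeR adjusted p = 0.102), which was called with the replicate block (log2 1.24, edgeR adjusted p = 0.0452) and without the library of experiment 2 at 30 µg/cm2 (log2 1.47, edgeR adjusted p = 0.0429). Without experiment 2 the 4 genes called were the same, with 3113 of 17950 genes called in all. This comparison shares its libraries with those against the controls and is not independent of them.

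The response to 1 µg/cm2 after 7 days was compared with that after 24 h in the same model. EdgeR called 0 of the 9 genes and 0% of all genes, with 2 of the 9 and 1245 of all genes at an unadjusted p under 0.05. DESeq2 called 0 of the 9 and 66 of all genes. *GPR3* had the largest difference of the 9, with a log2 of 1.47 (SE 0.414, unadjusted p = 0.00333, edgeR adjusted p = 0.434). It was 1.46 with the replicate block (edgeR adjusted p = 0.0561), 1.62 without experiment 2 (edgeR adjusted p = 0.0015) and 1.75 without the 24-h control of experiment 2 alone (edgeR adjusted p = 0.0341). The last 2 fits called 1766 of 17950 and 63 of 18088 genes in all.

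Untreated cells of the 7-day protocol were compared with those of the 24-h protocol. The protocols also differ in plating density and possibly in experiment, and these cannot be told apart. EdgeR called 1 of the 9 genes, against 21.9% of all genes. *GPR3* was lower after 7 days, by a log2 of -0.98 (SE 0.292, edgeR adjusted p = 0.022). The 24-h control of experiment 2, at 1.60 CPM, lay within the range of the 7-day controls. The *GPR3* call was lost without the 24-h control of experiment 1 (log2 -0.84, edgeR adjusted p = 0.0771) or 3 (log2 -0.84, edgeR adjusted p = 0.0863), or the 7-day control of experiment 1 (log2 -0.88, edgeR adjusted p = 0.0873) or 3 (log2 -0.95, edgeR adjusted p = 0.0738). *PDE4A* was higher by a log2 of 0.59 (SE 0.199, edgeR adjusted p = 0.0379) and *CREM* lower by -0.33 (SE 0.104, edgeR adjusted p = 0.0278), both under the threshold on size. *PDE4A* was called without the 24-h control of experiment 2 (log2 0.69, edgeR adjusted p = 0.0327) or the 7-day control of experiment 3 (log2 0.69, edgeR adjusted p = 0.0461).

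Over the 5 conditions, *CREM* was highest at 30 µg/cm2, followed by 7 days of PM2.5, 1 µg/cm2 for 24 h, the 24-h control and the 7-day control, and of these neighbours only the single low exposure and the 24-h control overlapped. *GPR3* was also highest at 30 µg/cm2, with no overlap, followed by the 24-h control and 7 days of PM2.5, which overlapped, and then by 1 µg/cm2 for 24 h and the 7-day control, which overlapped too. *PDE4B* was highest in the 24-h control, apart from the rest, and lowest after 7 days of PM2.5 and at 30 µg/cm2, which overlapped. For *PDE4D* both controls came first and overlapped, and the 3 exposed conditions followed, each overlapping the next.

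Per kb of exon length, *PDE4D* was the highest of the 9 genes in 24-h controls, at 5.44 ± 0.419 CPM per kb, ahead of *CREM* at 3.23 ± 0.205 (SD, n = 3). In all 3 exposed conditions the mean of *CREM* was above that of *PDE4D*. They were 6.00 ± 0.353 and 3.35 ± 0.877 CPM per kb at 30 µg/cm2, 3.31 ± 0.18 and 3.15 ± 0.0418 at 1 µg/cm2, and 3.86 ± 0.115 and 3.68 ± 0.691 after 7 days (SD, n = 3). This order was not tested, and it depends on the exon length used. In CPM, the mean of *PDE4D* was above that of *CREM* in all 3, for example 51.4 against 18.9 CPM at 1 µg/cm2 for 24 h. *GPR3* was in place 4 in 24-h controls, at 1.43 ± 0.58, and in place 3 at 30 µg/cm2, at 3.03 ± 0.238 CPM per kb. *SIK1* and *NR4A3* had the lowest levels in both controls, at 0.0457 ± 0.0138 and 0.110 ± 0.0226 CPM per kb in those of 24 h.

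The rest of the pathway was followed in 87 further genes, of which 72 could be tested. At 30 µg/cm2, 4 of the 72 rose and 7 fell, against 8.07% of all tested genes called in either direction, and their median log2 fold change was -0.05, compared with 0.03 over all tested genes. Without experiment 2, 11 rose and 8 fell, against 19.1% of all tested genes, and 10 of the 11 calls made with all libraries were among them. *PDE7A* was not (log2 -0.39). At 1 µg/cm2 and after 7 days edgeR called 0 of the 72 in each, and at 1 µg/cm2 without experiment 2 it called 6, against 2.11% of all genes. Of 12 tested receptors coupled to Gs, both calls with all libraries were falls in receptors of prostaglandin E2. *PTGER4* had 13.5 ± 6.54 CPM in controls and 5.18 ± 0.171 CPM at 30 µg/cm2 (log2 -1.39, edgeR adjusted p = 0.0142), and *PTGER2* had 7.602 ± 1.42 and 3.90 ± 1.00 CPM (log2 -0.96, edgeR adjusted p = 0.0233; SD, n = 3). With all libraries, none of the 5 G protein alpha subunits, 7 adenylyl cyclases and 2 Epac genes was called. Without experiment 2, the alpha subunit gene *GNAI2* was called (log2 -0.73). Besides *PTGER4* and *PTGER2*, the Gs-coupled receptors *ADCYAP1R1* (log2 1.99) and *MC1R* (-0.65) were then called too. Of 10 genes for subunits and inhibitors of protein kinase A, *PKIA*, an inhibitor, fell (log2 -0.85, edgeR adjusted p = 0.0205).

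Among 8 further phosphodiesterases that act on cAMP, *PDE3A* and *PDE7A* fell at 30 µg/cm2, where 8.07% of all tested genes were called. *PDE3A* had 25.1 ± 7.82 CPM in controls and 8.81 ± 1.06 CPM at 30 µg/cm2 (SD, n = 3; log2 -1.51, edgeR adjusted p = 0.000344). *PDE7A* had a log2 fold change of -0.70 (edgeR adjusted p = 0.0321). Without experiment 2, *PDE2A* (log2 1.72), *PDE4C* (1.30) and *PDE10A* (2.41) were called as rises. *PDE3A* (-1.16) was then the only phosphodiesterase of this list called as a fall. The 7 CREB factors and coactivators were not called with all libraries, and *CRTC3* was called without experiment 2 (log2 0.69). *CREB1*, *ATF1*, *CRTC1* and *CRTC2* had log2 fold changes of -0.02, -0.21, 0.14 and 0.11, and *CRTC3* one of 0.54 (edgeR adjusted p = 0.0294), under the threshold on size. The relatives of *SIK1* were not called either, with -0.29 for *SIK2* and 0.24 for *SIK3*. Of 10 further CREB targets, 4 rose and 2 fell at 30 µg/cm2, against 8.07% of all tested genes called in either direction. *EGR1* (log2 5.09), *VGF* (3.51), *FOSB* (1.70) and *FOS* (1.38) rose. Growth factor signals also induce these 4 genes, and neither such signals nor cAMP was measured. *PPARGC1A* (log2 -1.78) and *DUSP1* (-1.07) fell. The edgeR adjusted p of these 6 genes was between 2.41e-05 and 0.0199. Without experiment 2, the CREB target *GEM* (log2 0.93) and the SIK substrate gene *HDAC9* (1.48) were called as rises too. Both tested RXR genes, partners of NR4A receptors, were not called.

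Genes with the most similar profile were sought for each of the 9 by the Pearson correlation of log2 CPM over the 15 libraries. These libraries form 5 conditions of 3, so the values describe shared differences between conditions and experiments. For *GPR3* they were *CXCL8* (r = 0.959) and *PUM3* (0.952), for *CREM* *TNFRSF12A* (0.95), and for *NR4A1* *DCHS1* (0.956) and *LINC02693* (0.955). For *PDE4B* they were *EDIL3* (0.945) and *NEXN* (0.932), for *PDE4D* *APBB2* (0.87) and *NEDD9* (0.857), and for *PDE4A* *SLC29A3* (0.905) and *RCSD1* (0.904). The low counts of *NR4A2*, *NR4A3* and *SIK1* limit such a measure. Their nearest genes were *L1CAM* (0.916), *ZACN* (0.872) and *XNDC1N* (0.83), followed by *ERCC5* (0.893), *ERCC3* (0.868) and *GLS2* (0.824).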

How the data were processed

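Poly-A RNA of 15 libraries was sequenced with single-end reads of 50 bases. The authors aligned the reads to GRCh38 with STAR and deposited the counts per gene from featureCounts, without normalization. The submitters' processing notes name hg19, but 97.97% of the deposited exon starts are in a GRCh38 annotation. The strand and the handling of reads with several matches are not given in the sources used here, so overlapping genes and copies are uncertain.

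Counts were tested in R 4.3.3 with edgeR 4.0.16, using filterByExpr by condition, TMM, and a quasi-likelihood fit with 1 mean for each condition over 15 libraries. Each SE was derived from the F statistic of the fitted log2 fold change. DESeq2 1.42.0 and the other alternatives are given after the report. Scripts were tested on simulated data. P-values measure the spread between experiments in 1 cell line.

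The labels number the replicates, and in the series text a number stands for an experimental batch. Deviations from group means correlated at 0.201 to 0.721 between libraries of the same number at 24 h and at 0.121 to 0.18 in the 7-day protocol. Between different numbers the range was -0.682 to 0.453 at 24 h and -0.127 to -0.034 in the 7-day protocol. The library of number 3 at 30 µg/cm2 correlated at 0.40 with 24-h control 1 and at 0.201 with 24-h control 3. The number was used as a block, separately by protocol, in an alternative fit, and the main fit had no block.

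The 9 genes and all lists were chosen with earlier results of these data known. All calls come from the study's own counts, so none of them is independent evidence. *GPR3* and *PDE4D* are also among the genes that the study itself names. All 9 genes are described, pathway genes are named if called in an exposure or if they belong to a short list of CREB and SIK factors, and the 2 most similar genes are named for each. A few items that these rules cover are not reported here.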

Additional observations from a re-analysis of the deposited data

Results flagged for a closer look

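The response of *GPR3* to 1 µg/cm2 of PM2.5 had opposite signs in the protocols. All 3 experiments were lower than their control after 24 h, with log2 ratios of -1.32, -0.31 and -0.84, and all 3 were higher after 7 days, with 0.93, 0.32 and 0.50. The difference of the responses was a log2 of 1.47 (SE 0.414, edgeR adjusted p = 0.434), which did not pass over all genes. The protocols also differ in plating density, in the number of doses and possibly in experiments, and these cannot be told apart. The 24-h controls of experiments 1 and 3, at 3.73 and 3.72 CPM, lie well above all 7-day libraries, and that of experiment 2, at 1.60 CPM, does not.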

How the results depend on the processing

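At 30 µg/cm2, 5 of the 9 genes were called with RLE scaling, without a filter on low counts, with a filter at 1 CPM, with DESeq2, with the likelihood ratio test and with the replicate block. These fits called 1387 to 2681 genes in all, of 14655 to 36501 tested. Leaving out 1 library gave 3 to 4, with 794 of 17978 to 2706 of 18083 genes called in all. A fit of only the libraries compared gave 2 calls at 30 µg/cm2 (*CREM*, *PDE4B*), 1 for 30 against 1 µg/cm2 (*GPR3*), 1 after 7 days (*PDE4B*) and 0 between the controls. Over all genes it called, in the same order, 360 of 16117, 149 of 16231, 1029 of 16506 and 4240 of 16310. In that fit the edgeR adjusted p at 30 µg/cm2 was 0.18 for *NR4A1*, 0.162 for *PDE4D* and 0.159 for *GPR3*. For 1 µg/cm2 at 24 h, the replicate block and the fit without experiment 2 gave 2 calls each, and DESeq2 and the likelihood ratio test 1. In the same order, 74, 378, 39 and 34 genes were called in all. For 7 days, the replicate block, DESeq2 and the likelihood ratio test gave 1, of 773, 251 and 194 genes called in all. Between the responses to 1 µg/cm2, the fit without experiment 2 gave 1, with 1766 of 17950 genes called in all. Leaving out 1 library gave 0 to 1, with 0 to 63 genes called in all. Between the controls, the fit without a filter, DESeq2 and the fit without experiment 2 gave 2. In the same order, 4224 of 36501, 4240 of 17599 and 5564 of 17950 genes were called in all. Leaving out 1 library gave 0 to 2, with 2832 to 4071 genes called in all. The replicate block was not used between the protocols' controls, because the blocks were set separately for each protocol. It changed no other call than those of *PDE4B*, *PDE4D* and *NR4A3* given in the report. Over all genes it moved the calls from 1420 to 2681 at 30 µg/cm2, from 11 to 74 at 1 µg/cm2, from 40 to 773 after 7 days, from 1379 to 2737 between the concentrations, and from 0 to 181 between the responses. The cause of these differences was not tested.

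Small changes turned their sign. Without experiment 2, *PDE4A* at 30 µg/cm2 was 0.0417, *SIK1* at 1 µg/cm2 was 0.0779, and the difference of the responses of *NR4A3* was -0.0582 (log2). Summed with its copy, the difference of the responses of *SIK1* was 0.15. Leaving out 1 library gave log2 ranges of -0.0834 to 0.108 for *PDE4A* at 30 µg/cm2 and of -0.30 to 0.0768 for *NR4A2*, -0.58 to 0.11 for *SIK1* and -0.0097 to 0.0938 for *CREM* at 1 µg/cm2. After 7 days the ranges were -0.41 to 0.13 for *NR4A3*, -0.24 to 0.11 for *PDE4A* and -0.04 to 0.12 for *NR4A1*. For 30 against 1 µg/cm2 they were -0.24 to 0.14 for *NR4A2* and -0.053 to 0.28 for *PDE4D*, and between the responses -0.33 to 0.0529 for *NR4A2* and -0.96 to 0.0104 for *SIK1*. None of these was called. Of the 782 refitted values of single genes, 718 kept both direction and call. At 3 to 16 counts for *SIK1* and 4 to 36 for *NR4A3*, depth limits what can be detected.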
